A study of Homo sapiens with 6 samples.

Results

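The genes described here encode the membrane fusion machinery: the syntaxins, the vesicle-associated membrane proteins (VAMPs), the SNAP-25 family, the synaptotagmins and the syntaxin-binding proteins. They were taken by symbol, with earlier results of these data already known. The symbols were STX, VAMP, SYT or STXBP with a number, and SNAP23, SNAP25, SNAP29 and SNAP47. This gave 50 of the 25680 gene symbols listed in the deposited files, made up of 16 syntaxins, 7 VAMPs, 4 SNAP-25 family genes, 17 synaptotagmins and 6 syntaxin-binding genes. Of the 50, 36 had enough counts to be tested.

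The cells were U87, an established human glioblastoma line, labelled as wild type. All had been given 500 nM of EPP6, a cyclic peptide carrying the fluorescent dye rhodamine, for 1 h before they were detached and sorted by fluorescence. The brightest 30% are called high uptake and the dimmest 30% low uptake, with 3 libraries each, numbered 2, 3 and 4 in the labels. The groups therefore share the line and the peptide treatment, and no library came from untreated cells. Whether replicates came from different cultures is not stated in the labels, and p-values here cover only the library-to-library spread, which may be technical. The question set by the series is which proteins take part in the entry of cyclic peptides.

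SNARE proteins drive the merging of a vesicle with its target membrane. Syntaxins and SNAP-25 family proteins on the target side (Q-SNAREs) and a VAMP on the vesicle side (an R-SNARE) zip into a tight bundle of helices that pulls the membranes together, and the ATPase NSF later takes the bundle apart. Syntaxin-binding proteins of the Munc18 kind hold and template syntaxins, and synaptotagmins are membrane proteins with C2 domains, some of which bind calcium and trigger release. The same machinery works at every step of endosomal traffic as well as in exocytosis. SNAP25, STX1A and VAMP2 are best known from the nerve terminal, while SNAP23, STX4 and VAMP3 are their widely expressed counterparts.

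Libraries held 13712263 to 40742857 counts. Within a group, low replicates 3 and 4 were the closest pair, with a chi-square of their counts per degree of freedom of 2.35, while the other pairs had 11.5 to 19.6; each was kept as its own sample. In the comparison across all 14598 tested genes by edgeR's quasi-likelihood test, 626 passed an adjusted p of 0.05, which is 4.29% of those tested (3.03% higher and 1.26% lower in high uptake). Of the markers set for the line, VIM stood at 11291 to 12619 and CD44 at 619.5 to 759.5 TPM. TPM is the authors' transcript level, corrected for gene length and scaled to the same sum in every library. NES stood at 8.28 to 10.9 and EGFR at 44.5 to 50.5 TPM. TNC stood at 463.4 to 529.4 TPM in high and 379.6 to 409.8 TPM in low uptake (log2 0.27, edgeR adjusted p = 0.0743). CHI3L1 stood at 136.4 to 159.1 and 44.8 to 94.7 TPM (log2 0.99, edgeR adjusted p = 0.089). The glial genes GFAP and OLIG2 stood at or below 1.39 TPM, and SOX2 had a count in only 1 library, low replicate 3. CD44, TNC and CHI3L1 were higher and OLIG2 lower in high uptake without overlap, but none passed. The defining neuronal genes STMN2, SLC17A7, RBFOX3, SYN1 and SYP were at no more than 1.37 TPM in every library, and the neuroendocrine genes CHGA, CHGB and INSM1 at no more than 0.158 TPM. GAD1, the last of these 6 defining neuronal genes, stood at 8.06 to 8.87 TPM. Some neuronal and granule genes outside these lists, picked after their values were seen, stood higher. Among them were TUBB3 at 268 to 372.7, SCG5 at 57.7 to 92.3 and SV2A at 51.1 to 60.6 TPM. DLG4 stood at 23.4 to 29.7 TPM and GAP43 at 12.4 to 16.5 TPM.

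In high uptake cells SNAP25 was the only fusion gene of the 36 tested that passed, and it was higher. The other 35 did not pass. As CPM (counts over library totals adjusted by TMM factors), SNAP25 averaged 25.2 ± 4.17 in the high and 14.7 ± 2.1 in the low libraries (SD, n = 3 per group). Its fitted log2 fold change was 0.80, or 1.74-fold (SE 0.14, 95% interval 0.49 to 1.10, edgeR adjusted p = 0.00987). A count of 1 in 36 stands beside 4.29% of all tested genes, so the set as a whole was not called more often than the background. The median log2 fold change of the 36 was 0.02, against -0.00 over all tested genes, and 31 of the 36 lay within 0.25 of zero. DESeq2 and limma each also called SNAP25 and no other member, where they called 874 and 642 genes over all tested genes. Without adjustment, 4 of the 36 had a p under 0.05, where 18.4% of all tested genes did. Among them were SNAP25, with higher values in high uptake, and STX18 and STX3, with lower values.

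SNAP25 supplies the pair of helices that a fusion bundle at the plasma membrane needs from a SNAP-25 family protein, and is cut by several botulinum toxins. Its counts were 1209, 297 and 787 in high replicates 2, 3 and 4 and 488, 320 and 344 in low replicates 2, 3 and 4. Per length, these correspond to 33.9, 24.6 and 27.1 TPM in high uptake and 14.2, 15.9 and 18.5 TPM in low uptake. Every high library therefore lay above every low library, with the highest value in high replicate 2 and the lowest in low replicate 2. The ratio of high to low CPM was 2.37 between the libraries numbered 2, 1.52 between those numbered 3 and 1.40 between those numbered 4. With both libraries numbered 2 left out, the log2 fold change was 0.55 (SE 0.116, adjusted p = 0.00163). Leaving out any single library gave 0.65 to 0.90, with an adjusted p of 0.0311 or less. By fold change SNAP25 was number 97 among the 442 genes that were higher, so it was not among the most changed genes of the comparison.

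The files count genes, not isoforms, so the SNAP25 value adds up its alternatively spliced forms. Sharing of reads with SNAP23, its closest widely expressed relative, was examined on the GENCODE release 29 transcripts SNAP25-201 and SNAP23-201 (GRCh38 annotation). Their coding sequences, of 618 and 633 bases, were alike at 66.8% of 599 aligned bases, and the longest run shared exactly by the whole transcripts was 13 bases. The 90-base stretches where the coding sequences are most alike are shown because this is where a read would be hardest to assign. Positions are counted from the start codon, bases 144 to 233 in SNAP25 and 129 to 218 in SNAP23. Capitals mark the 17 bases that differ, and the other 73 are the same:
SNAP25: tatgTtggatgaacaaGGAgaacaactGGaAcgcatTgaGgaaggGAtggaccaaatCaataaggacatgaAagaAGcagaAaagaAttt
SNAP23: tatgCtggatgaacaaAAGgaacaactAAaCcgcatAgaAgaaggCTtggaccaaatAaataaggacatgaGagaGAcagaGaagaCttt

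An antisense gene, SNAP25-AS1, lies on the opposite strand and shares no exon base with SNAP25 in that annotation. It had 47, 18 and 46 counts in the high libraries and 32, 25 and 15 in the low libraries, or 3.89% to 7.81% of the SNAP25 count. Its log2 fold change was 0.52 (SE 0.259) and did not pass (edgeR adjusted p = 0.319). Which strand option the authors' counting used is not given in the sources used here.

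The widely expressed relatives of SNAP25 gave much smaller differences. SNAP23, which serves exocytosis and recycling in most cells, stood at 44.0, 33.9 and 43.4 TPM in high replicates 2, 3 and 4 and at 46.9, 39.7 and 42.8 TPM in low replicates 2, 3 and 4. The groups overlapped, and the lowest value was that of high replicate 3. Its log2 fold change was -0.12 (SE 0.107, 95% interval -0.36 to 0.11, edgeR adjusted p = 0.599). SNAP47, a family member without the palmitoylated stretch of SNAP25, stood at 32.5, 40.9 and 35.3 TPM in high uptake and 33.6, 39.9 and 37.2 TPM in low uptake. Its groups overlapped as well, and its log2 fold change was -0.07 (95% interval -0.31 to 0.18). SNAP29, which acts in autophagosome and endosome fusion, stood at 30.4, 31.5 and 30.8 TPM in high uptake and 26.5, 28.1 and 27.4 TPM in low uptake. The SNAP29 libraries did not overlap, but the difference was small and did not pass (log2 0.14, SE 0.0826, 95% interval -0.04 to 0.32, edgeR adjusted p = 0.392). The interval of the SNAP25 difference thus began at 0.49, above the upper ends of its 3 relatives at 0.11, 0.18 and 0.32.

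**Figure D1:**
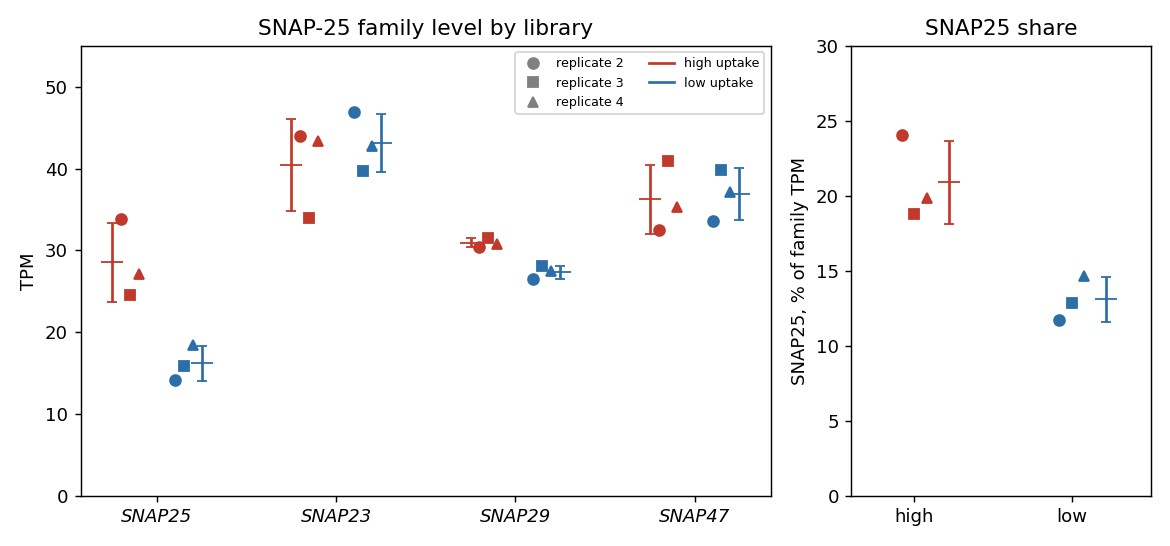
Level of the 4 SNAP-25 family genes in TPM (left) and SNAP25 as a percentage of their summed TPM (right), 1 point per library (circle, square and triangle for replicates 2, 3 and 4), with mean ± SD (n = 3) as bars. The high and low SNAP25 points do not overlap (24.6 to 33.9 against 14.2 to 18.5 TPM), whereas those of SNAP23 and SNAP47 do.

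As a share of the summed TPM of the family, SNAP25 made up 24.1%, 18.8% and 19.8% in high replicates 2, 3 and 4 and 11.7%, 12.9% and 14.7% in low replicates 2, 3 and 4. The means were 20.9% ± 2.79 and 13.1% ± 1.5 (SD, n = 3 each), a difference of 7.81 percentage points. The exact two-sided permutation test gave p = 0.1, the smallest that 3 against 3 allows. SNAP25 is the numerator and already lay higher without overlap, while its relatives differed little. The share therefore restates the SNAP25 difference and is not separate support for it. No other test set SNAP25 against its relatives. The family as a whole summed to 130.9 to 140.8 TPM in high uptake and 121.1 to 125.8 TPM in low uptake. In the low libraries the order of levels was SNAP23, SNAP47, SNAP29 and SNAP25, at means of 43.1, 36.9, 27.3 and 16.2 TPM. SNAP23 and SNAP47 were within their spread of each other (SD 3.58 and 3.16), since low replicate 3 held 39.7 TPM of SNAP23 and 39.9 of SNAP47. In the high libraries the order of means was the same, at 40.4, 36.2, 30.9 and 28.5 TPM, and SNAP47 lay above SNAP29 in all 3 libraries. In high replicate 3, however, SNAP47 (40.9 TPM) lay above SNAP23 (33.9 TPM). SNAP29 and SNAP25 were no longer separated, since SNAP25 exceeded SNAP29 in high replicate 2 and was below it in high replicates 3 and 4. The ratio of SNAP25 to SNAP23 TPM was 0.77, 0.725 and 0.625 in high uptake and 0.303, 0.4 and 0.432 in low uptake.

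Markers of other cell types were read beside this difference. The summed TPM of the 6 defining neuronal markers was 9.67 to 10.9 in high uptake and 9.94 to 10.6 in low uptake, most of it GAD1, with STMN2 at 0. Of the 4 fibroblast-type genes on the marker lists, COL1A1, PDGFRB and LUM rose (log2 0.98, 0.83 and 0.85, edgeR adjusted p = 0.00197, 0.00535 and 0.0327), and DCN was below the count filter, at no more than 0.502 TPM. That list summed to 337.9 to 400.3 TPM in high uptake and 151.6 to 207.2 TPM in low uptake, and its part in the SNAP25 difference was not tested. The immune list summed to 341.4 to 369.4 TPM in high and 307.4 to 362 TPM in low uptake. Nearly all of it was CD68 (log2 0.07, edgeR adjusted p = 0.735). The epithelial list summed to 2.65 to 3.78 and 2.82 to 3.52 TPM, and the endothelial list to 0.532 to 0.889 and 0.415 to 0.614 TPM. In sorted bulk samples, more cells of a kind and more RNA per cell cannot be told apart.

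Of 33 neuronal and secretory granule genes that accompany SNAP25 in brain, 16 were tested, 2 fell and none rose, by edgeR, DESeq2 and limma alike. In edgeR 4.29% of all tested genes passed, and DESeq2 and limma called 874 and 642 genes. The median log2 fold change of the 16 was -0.03. The 33 genes summed to 558.7 to 625.9 TPM in high uptake and 491.4 to 574.6 TPM in low uptake. These ranges overlapped, and TUBB3 made up the largest part, at 268 to 372.7 TPM. In every library 22 of the 33 stood below 1 TPM. Without adjustment, 3 of the 16 had a p under 0.05, against 18.4% of all tested genes. The gene besides the 2 that fell was SCG5, a chaperone of granule proteins, named after its values were seen, with the higher values in high uptake (log2 0.33, edgeR adjusted p = 0.129). With the GC trend removed, TUBB3, a neuronal tubulin likewise named after its values were seen, was called higher as well (edgeR adjusted p = 0.0194), giving 1 higher and 2 lower. VGF, a secreted granule protein and neuropeptide precursor, stood at 33.4, 43.8 and 40.8 TPM in high replicates 2, 3 and 4 and 52.1, 54.8 and 59.0 TPM in low replicates 2, 3 and 4 (log2 -0.53, SE 0.112, edgeR adjusted p = 0.0228). MAP2, a microtubule-binding protein of dendrites, stood at 4.48 to 5.45 TPM against 6.11 to 6.61 TPM (log2 -0.40, SE 0.0963, edgeR adjusted p = 0.0415). The high and low libraries did not overlap for either gene, and both were lower where SNAP25 was higher. The MAP2 call was lost without any single library of the 6 (adjusted p from 0.0567 to 0.14). The VGF call was lost when any 1 of high replicates 2 and 4 and low replicates 3 and 4 was left out (0.0653 to 0.11).

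The partners of SNAP25 at the nerve terminal were detected in U87 cells, with smaller differences that did not pass. STX1A, the plasma membrane syntaxin that pairs with SNAP25, was the most abundant plasma membrane syntaxin, at 120.2, 153.5 and 141.2 TPM in high replicates 2, 3 and 4 and 113.2, 143.2 and 135.6 TPM in low replicates 2, 3 and 4. These ranges overlapped almost entirely, with the libraries numbered 2 lowest in each group (log2 0.04, SE 0.117, 95% interval -0.21 to 0.30). SNAP25 transcripts numbered 0.16 to 0.282 per STX1A transcript in high uptake and 0.111 to 0.136 in low uptake, by TPM. VAMP2, the vesicle partner, stood at 35.4, 41.4 and 46.1 TPM in high uptake and 38.0, 44.9 and 40.8 TPM in low uptake, again overlapping (log2 -0.05, 95% interval -0.30 to 0.20).

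Among the syntaxin-binding genes, none of the 6 tested passed by edgeR, DESeq2 or limma, where 4.29% of all tested genes passed in edgeR. STXBP3, the Munc18 protein of the widely expressed STX4 pathway, stood at 63.2 to 83.2 TPM in high uptake and 65.7 to 77.6 TPM in low uptake (log2 0.10, SE 0.109). STXBP2, the Munc18 form of blood and epithelial cells, was close to the lower limit at 0.614 to 1.45 TPM. The syntaxin-binding genes of other kinds were STXBP6 (amisyn, 15.8 to 18.7 TPM), STXBP5 (tomosyn, an inhibitor of bundle assembly, 11.4 to 14.4 TPM) and STXBP4 (3.21 to 4.28 TPM). Their log2 fold changes ran from -0.04 to 0.08. Exons of STXBP5 and of STXBP5-AS1 on the opposite strand overlap by 190 bases, and the antisense count was 13.1% to 20.9% of the STXBP5 count, so reads there could not be assigned without the strand setting.

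Among the 7 plasma membrane syntaxins none of the 6 tested passed, where 4.29% of all tested genes did. An unadjusted p under 0.05 was seen for 1 of the 6, against 18.4% of all tested genes. STX4, the syntaxin of regulated membrane insertion in most cells, stood at 75.7 to 87.0 TPM in high uptake and 76.1 to 87.6 TPM in low uptake (log2 -0.10, SE 0.0981, 95% interval -0.31 to 0.12). STX3, a syntaxin of apical and granule membranes, stood at 28.7, 25.2 and 26.2 TPM in high replicates 2, 3 and 4 and 31.5, 28.6 and 29.01 TPM in low replicates 2, 3 and 4. In CPM its groups did not overlap, with the low libraries higher, while in TPM high replicate 2 slightly exceeded low replicate 3. The difference did not pass (log2 -0.19, SE 0.0828, unadjusted p = 0.0448, edgeR adjusted p = 0.259). STX2 stood at 35.8 to 45.9 TPM with a log2 fold change of 0.16 (95% interval -0.04 to 0.35). STX11, a syntaxin of cytotoxic lymphocytes, was tested at 0.098 to 0.191 TPM and 3 to 16 counts, where the interval of its log2 fold change ran from -1.21 to 0.49. STX19 had 7 counts over all 6 libraries and was not tested.

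**Figure D2:**
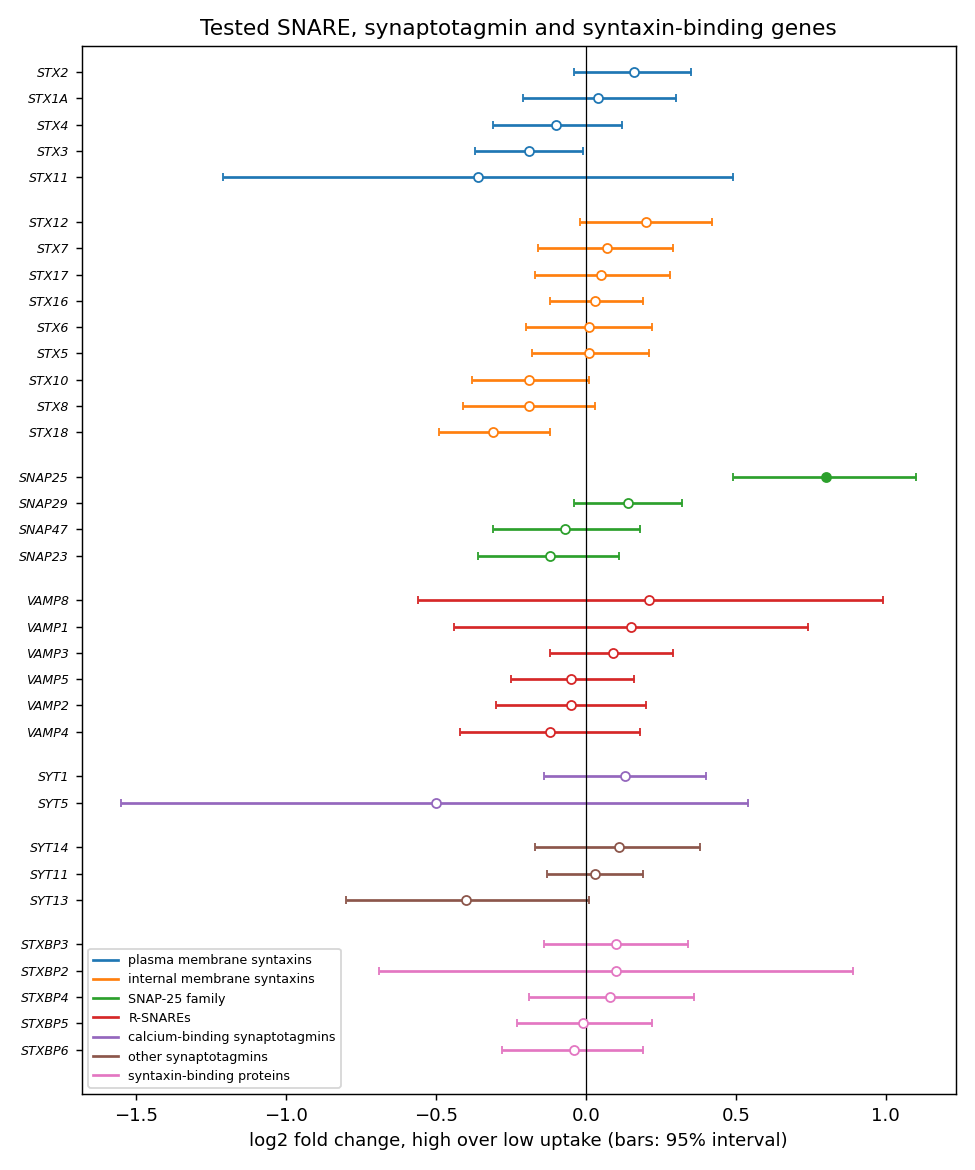
Log2 fold change of high over low uptake for 34 of the 36 tested genes, grouped by role in colour, with 95% intervals as bars. SNAP25, at 0.80, is the filled point and the only member past an adjusted p of 0.05, and the open points lie between -0.50 and 0.21.

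The syntaxins of internal membranes showed the second-smallest p of the set. All 9 were tested and none passed by edgeR, DESeq2 or limma, where 4.29% of all tested genes passed in edgeR. STX18 alone had an unadjusted p under 0.05, against 18.4% of all tested genes. The log2 fold changes of the 9 lay between -0.31 and 0.20, with a median of 0.01. STX18, the syntaxin of the endoplasmic reticulum that receives vesicles returning from the Golgi, stood at 29.1, 30.3 and 31.4 TPM in high replicates 2, 3 and 4 and 38.5, 35.2 and 35.6 TPM in low replicates 2, 3 and 4. The high libraries were all lower, without overlap, but the difference missed the threshold (log2 -0.31, SE 0.086, 95% interval -0.49 to -0.12, edgeR adjusted p = 0.074). Exons of STX18 and its antisense gene STX18-AS1 overlap by 187 bases, and the antisense count was 1.99% to 3.03% of that of STX18.

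BNIP1, the SNARE that forms a complex with STX18 at the endoplasmic reticulum, fell. It stood at 27.0, 28.1 and 29.2 TPM in high replicates 2, 3 and 4 and 37.9, 37.8 and 34.4 TPM in low replicates 2, 3 and 4, with no overlap (log2 -0.42, SE 0.0954, edgeR adjusted p = 0.031). The other members of that complex, USE1 and SEC22B, had log2 fold changes of -0.13 (95% interval -0.37 to 0.10) and -0.02 (95% interval -0.23 to 0.19). The BNIP1 call was lost without any single library other than high replicate 3 (adjusted p from 0.0509 to 0.132) and with the trend of counts with gene length removed (0.0569).

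The remaining internal syntaxins did not pass, with log2 fold changes from -0.19 to 0.20. STX10, of the trans-Golgi network, was the highest of them at 108.9 to 121.1 TPM in high uptake and 119.4 to 132.3 TPM in low uptake (log2 -0.19, SE 0.0883, edgeR adjusted p = 0.293). STX16, its partner in retrograde transport from endosomes, stood at 76.2 to 82.4 and 74.7 to 79.8 TPM (log2 0.03, SE 0.0723). A read-through gene, STX16-NPEPL1, shares 1446 exon bases with STX16 and had 45.5% to 62.1% as many counts, so that reads of the pair could be split between them. The early and recycling endosome syntaxin STX12 stood at 41.3, 32.1 and 38.9 TPM in high uptake and 33.3, 30.4 and 31.8 TPM in low uptake, so that high replicate 3 fell within the low range (log2 0.20, SE 0.0999, edgeR adjusted p = 0.313). The late endosome pair STX7 and STX8 had log2 fold changes of 0.07 and -0.19. STX5 of the Golgi, STX6 of endosomes and the trans-Golgi network, and STX17 of autophagosomes had values of 0.01, 0.01 and 0.05, at mean levels across libraries of 63.8, 8.74 and 7.83 TPM.

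VAMP3 (cellubrevin), the R-SNARE of recycling endosomes, was the most abundant member of all, at 260.0, 209.3 and 255.8 TPM in high replicates 2, 3 and 4 and 245.2, 203.3 and 218.6 TPM in low replicates 2, 3 and 4. Both libraries numbered 3 were the lowest of their group, and the groups overlapped (log2 0.09, SE 0.0946, 95% interval -0.12 to 0.29). VAMP5, first known from muscle, came next among the R-SNAREs at 86.7 to 96.8 TPM (log2 -0.05, SE 0.0937), followed by VAMP2. VAMP1 varied between libraries of a group, at 9.38, 14.1 and 15.9 TPM in high uptake and 7.53, 14.5 and 12.7 TPM in low uptake. Both libraries numbered 2 were its lowest, and the interval of its log2 fold change ran from -0.44 to 0.74. VAMP4 of the trans-Golgi network stood at 6.28 to 9.57 TPM and VAMP8 of late endosomes at 1.14 to 2.32 TPM, the latter on 10 to 23 counts. None of the 6 tested R-SNAREs had an unadjusted p under 0.05 in edgeR, against 18.4% of all tested genes, and DESeq2 and limma called none.

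VAMP7, the R-SNARE of lysosome fusion, was listed at 0 in all 6 libraries. It lies in a pseudoautosomal region, a stretch shared by the X and Y chromosomes. Of the 25 genes of these regions in the files, 22, VAMP7 included, were at 0 in every library. Among them were CD99 and SLC25A6, which most cells use, and the largest total of any was 13 counts. The zero for VAMP7 is therefore given as a listed value and not as absence of the transcript.

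**Figure D3:**
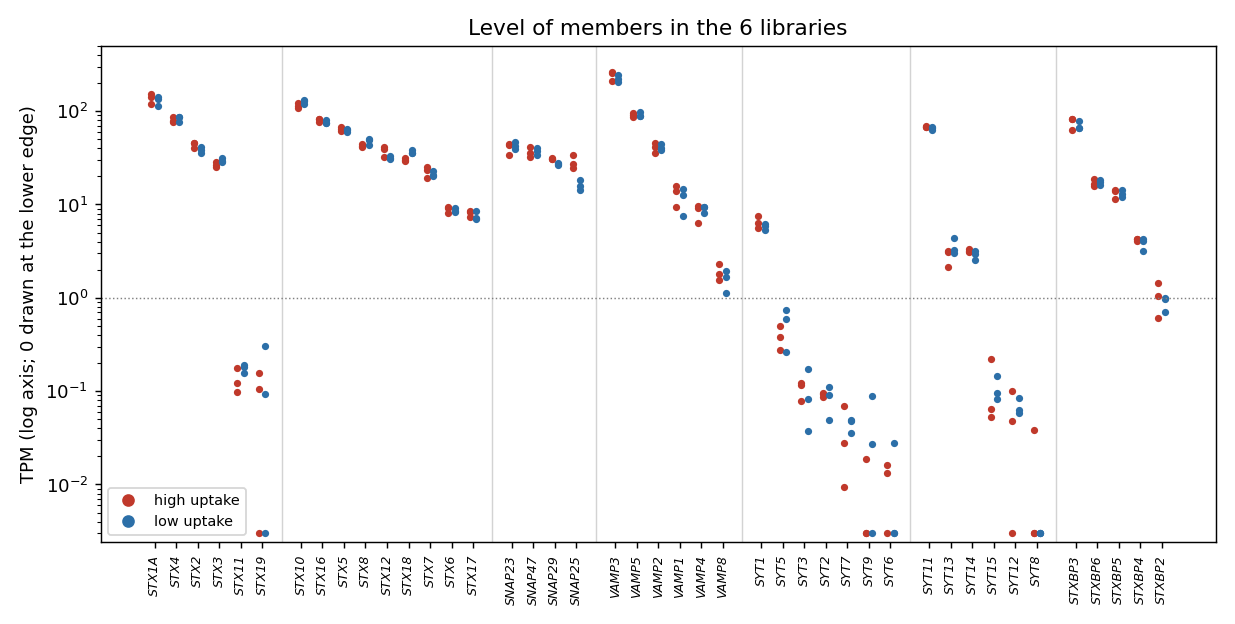
Level of 43 members with at least 1 count in the 6 libraries, in TPM on a log axis, grouped by role (vertical lines separate roles), in order of mean level within a role and coloured by group; points at the lower edge stand for 0, and the dotted line marks 1 TPM. The high SNAP25 points (24.6 to 33.9 TPM) lie clear of the low ones (14.2 to 18.5 TPM), and most synaptotagmins lie below 1 TPM.

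Most synaptotagmins were near the detection limit. Of the 17, 5 passed the count filter, and none of these had an unadjusted p under 0.05, against 18.4% of all tested genes. On average 13 of the 17 stood below 1 TPM, of which SYT4, SYT10, SYT16 and SYT17 were listed at 0 in all 6 libraries. A count of 0 allows a level of up to 0.0736 CPM in the deepest library and 0.219 CPM in the shallowest, taking 3 counts as the limit and counting error alone. SYT11, a synaptotagmin that does not bind calcium and is linked to endocytosis and vesicle recycling, accounted for most of the family, at 68.2, 67.8 and 70.1 TPM in high replicates 2, 3 and 4 and 66.4, 67.6 and 63.3 TPM in low replicates 2, 3 and 4. It was among the steadiest members (log2 0.03, SE 0.0726, 95% interval -0.13 to 0.19). SYT1, the calcium sensor of fast transmitter release that binds SNAP25 and STX1A, stood at 5.61, 6.35 and 7.56 TPM in high uptake and 6.16, 5.35 and 5.91 TPM in low uptake. Its groups overlapped, and high replicate 4 was the highest (log2 0.13, SE 0.123, 95% interval -0.14 to 0.40).

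The other tested synaptotagmins were low. SYT13, which lacks calcium binding, stood at 2.16, 3.08 and 3.16 TPM in high uptake and 3.04, 3.25 and 4.43 TPM in low uptake, with a log2 fold change of -0.40 (SE 0.186, edgeR adjusted p = 0.288). Its groups overlapped through low replicate 2. SYT14 stood at 2.52 to 3.34 TPM (log2 0.11, SE 0.128). SYT5, a calcium-binding form of dense-core vesicles, had 6 to 15 counts per library, and its log2 interval ran from -1.55 to 0.54. SYT7, the calcium sensor of lysosome exocytosis and membrane repair, had 18 counts over all libraries and SYT2 had 45. The summed TPM of the 8 calcium-binding synaptotagmins was 6.07 to 8.26 in high uptake and 6.45 to 6.75 in low uptake, nearly all of it SYT1.

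Of a list of 63 further genes of the fusion pathway, 54 were tested, BNIP1 fell and none rose by edgeR, where 4.29% of all tested genes passed. With the GC trend removed, edgeR called 7 higher and 1 lower, where 18.2% of all tested genes passed. DESeq2 called NSF and SYTL2 higher besides BNIP1, and limma called BNIP1 alone, of 874 and 642 calls over all genes. Over the 54, the median log2 fold change was -0.01. An unadjusted p under 0.05 was seen for 8 (6 higher, 2 lower), against 18.4% of all tested genes. The 2 lower were BNIP1 and EXOC6 (log2 -0.45, edgeR adjusted p = 0.177). NSF, the ATPase that takes spent SNARE bundles apart, stood at 40.7, 40.2 and 40.9 TPM in high replicates 2, 3 and 4 and 33.9, 32.7 and 32.1 TPM in low replicates 2, 3 and 4. These values were tight and did not overlap, yet the 1.21-fold difference missed the threshold (log2 0.27, SE 0.0742, edgeR adjusted p = 0.0672). NAPA, the adaptor that brings NSF to the bundle, had a log2 fold change of 0.08 (SE 0.0877). The synaptotagmin-like genes SYTL2, SYTL4 and SYTL5, effectors of Rab27 in granule docking, had log2 fold changes of 0.40, 0.41 and 0.95. Their groups did not overlap, with edgeR adjusted p of 0.0922, 0.0717 and 0.0657. The remaining SYTL1 and SYTL3 had -0.01 and 0.10, with overlapping groups (edgeR adjusted p = 0.991 and 0.673). SYTL5 was low, at 0.751 to 0.81 TPM against 0.265 to 0.465 TPM. RIMS3, a small relative of the active-zone RIM proteins, stood at 40.6 to 43.3 TPM in high uptake and 30.5 to 35.8 TPM in low uptake (log2 0.29, edgeR adjusted p = 0.0979). RIMS2, on low counts, had a log2 fold change of -0.55 (edgeR adjusted p = 0.339). NSF, NAPA, EXOC6, the SYTL genes, USE1, SEC22B, RIMS2 and RIMS3 were picked from the list after their values were seen. Complexins, which clamp SNARE bundles at synapses, were not tested: CPLX2 and CPLX4 were listed at 0 throughout, and CPLX1 and CPLX3 had too few counts.

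Of the 36 tested members 5, among them SNAP25, SNAP29, STX3 and STX18, had high and low CPM values that did not overlap, or 13.9% against 24.4% of all tested genes. Of the 50 members, 4 were in the authors' deposited table of 2305 gene symbols, among them SNAP25, STX3 and STX18. That table gives no test, direction or value for them, and it held 15.8% of the genes tested here and 8.98% of those listed. These 4 were also the members with an unadjusted p under 0.05. The authors' list carries a p limit of 0.05 in its name and comes from the same series, so this overlap is not independent of the p-values here. With each library's trend of counts with GC content removed, 6 members passed, among them SNAP25 (log2 0.79) and STX12 (0.20), which were higher, and STX18 (-0.32), STX3 (-0.20) and STX10 (-0.18), which were lower. Their edgeR adjusted p lay between 0.00357 and 0.0355. In that fit 18.2% of all tested genes passed, so 6 of 36 was again close to the background, and 56.3% of all calls were higher against 70.6% without the correction.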

How the data were processed

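RNA of sorted U87 cells was sequenced from 6 libraries prepared with a directional kit, per the labels' protocols. Per the file headers, the deposited values are counts, FPKM and TPM for each gene symbol. The submitters' processing notes name fastp, STAR, featureCounts and genome build hg19, with no versions. Not given in the sources used here are the annotation, the strand option and the rule for multiply mapped reads. The authors' FPKM served only to recover gene-model lengths, and their TPM to compare levels between genes. A further deposited table held gene symbols alone.

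Counts were tested with edgeR 4.0.16 (quasi-likelihood, robust, TMM scaling, two-sided, Benjamini-Hochberg over all genes, threshold 0.05), keeping genes by filterByExpr (minimum count 10, total 15), which left 14598 of 25680. SE is the log2 fold change over the root of F. CPM are TMM-scaled. Alternatives used DESeq2 1.42.0, limma 3.58.1, other scalings, filters and library sets, and trends with length and GC content (GENCODE 29 transcripts, 92.8% of tested genes) removed. The scripts were tested on simulated data. The SNAP25 share used an exact two-sided permutation test.

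Members and lists were chosen with earlier results of these data known. Named were members past the threshold or at an unadjusted p under 0.05, the SNAP-25 family, the 2 most abundant members of each role, and list genes past the threshold; remaining members are described by their values. The counts cover all members, but 2 of them are not reported here by name or value.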

Additional observations from a re-analysis of the deposited data

How the results depend on the processing

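SNAP25 passed in all 18 alternatives, with log2 fold changes from 0.55 to 0.90 and adjusted p from 9.02e-06 to 0.0381. The members called numbered 1 in every alternative but 3. They were 6 with the GC trend removed, 7 with the replicate number as a block (those 6 and SYT13) and 8 with both (also STX2). Over all genes the calls were 2656, 3176 and 4051 in those 3 fits against 626. The further fusion genes called were 8 (7 higher, 1 lower), 8 (6 higher, 2 lower) and 14 (11 higher, 3 lower) against 1 lower. The neuronal and granule genes were 3 (1 higher, 2 lower) with the GC trend removed and 4 (2 higher, 2 lower) with the block, alone or with the GC correction, against 2 lower. Equal replicate numbers do not pair the libraries by the labels, so the block was not used beside the results. Deviations from group means correlated at 0.452, 0.304 and 0.087 for numbers 2, 3 and 4, and at -0.395 to 0.216 for unlike numbers. Whether equal numbers came from the same sorted culture was not tested. Low replicate 4 correlated best with high replicate 3 (0.216), and the other low libraries with the high library of their own number.

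Without single libraries, calls over all genes ran from 232 to 738, with 282 and 379 when high replicates 2 and 4 were dropped in turn, and 276 and 232 when low replicates 3 and 4 were. They ran from 0 to 3 among the further fusion genes and from 0 to 1 among the neuronal and granule genes. The further fusion genes called were 4 without a filter on low counts, 4 with both libraries numbered 2 left out, 3 in DESeq2 and 0 with the gene length trend removed. Over all genes the calls in these settings were 889, 788, 874 and 465, in the same order, against 626. The cause of these shifts was not tested. The SNAP25 share differed by 14.0 percentage points when set against SNAP23 only, by 6.05 on CPM, and by 5.54 to 8.87 with libraries left out.

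Of 377 values of 21 named genes under alternatives, 9 changed sign, all of genes that passed in neither fit. Without single libraries, STX1A ran from -0.06 to 0.14, SNAP47 from -0.18 to 0.01 and VAMP5 from -0.08 to 0.00. With the length trend removed, VAMP5 stood at 0.05, STX16 at -0.00 and SYT11 at -0.01. Depth limits the low members: below about 1 TPM, intervals span more than a log2 unit.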
